A study of Mus musculus with 8 samples.

Results

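The collagen crosslinking and processing enzymes described here were the 5 lysyl oxidases (Lox, Loxl1, Loxl2, Loxl3 and Loxl4), the 3 procollagen lysyl hydroxylases (Plod1, Plod2 and Plod3) and the 2 procollagen C-proteinase enhancers (Pcolce and Pcolce2). They were taken by gene symbol as 3 enzyme families and by no threshold on their values, although earlier results of these data were known when the families were picked, and all 10 were found among the 54532 genes of the deposited count table. All 10 also passed the filter on low counts, which left 15470 genes for testing. RNA was sequenced in bulk from mouse embryonic fibroblasts, a primary connective tissue culture, of wild type genotype, after 4 days in 1 of 4 media, with 2 libraries for each medium.

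The control group, MEF, was kept in ordinary fibroblast medium. The CFAE+8 group received CHIR99021 (a GSK-3 inhibitor), Forskolin (an activator of adenylyl cyclase), AM580 (a retinoic acid receptor agonist), EPZ04777 as the labels spell it (a DOT1L inhibitor) and compound 8, A-83-01, an inhibitor of the TGF-beta type I receptor. The CFAE+8+MSC group received the same 5 compounds and MSC2530818, an inhibitor of the mediator kinases CDK8 and CDK19. In the CFAE+6 group compound 6, E-616452, another inhibitor of the TGF-beta type I receptor, stood in place of A-83-01, so all 3 cocktails shared CHIR99021, Forskolin, AM580, EPZ04777 and 1 receptor inhibitor. The doses are not in the labels, so the receptor inhibitors cannot be said to have been compared at matched doses. Separate cultures for the 2 libraries of each medium are not recorded in the labels, and the p-values below therefore measure only the spread between these libraries, which may be technical.

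Fibrillar collagen is made as a procollagen whose lysines are hydroxylated in the endoplasmic reticulum by the PLOD enzymes; PLOD2 acts mainly on the telopeptides and PLOD1 on the helical domain, while PLOD3 also carries glycosyltransferase activity. After secretion, the C-propeptide is cut off by BMP1 and the related tolloid proteinases, and PCOLCE and PCOLCE2 bind procollagen and speed that cut. Lysyl oxidases are secreted copper enzymes that oxidise lysine and hydroxylysine to aldehydes, from which the covalent crosslinks of collagen and elastin form. LOX and LOXL1 carry a propeptide that is removed outside the cell, whereas LOXL2, LOXL3 and LOXL4 carry scavenger receptor domains before the catalytic domain. In fibroblasts, TGF-beta is a known inducer of Lox, and low oxygen of Lox, Loxl2 and Plod2.

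The lysyl oxidase paralogs resemble each other most in the part that encodes the catalytic domain, which bears on how reads can be told apart. The 60 coding bases of Loxl2 with the fewest mismatches to Loxl3 and Loxl4 are printed below with the aligned bases of Loxl1, Loxl3 and Loxl4. All 4 stretches lie within coding exons (GENCODE M21 annotation, GRCm38) and are written 5′ to 3′ on the gene's strand, with capitals at bases that differ from Loxl2.
Loxl2, chr14:69689059-69689118, plus strand: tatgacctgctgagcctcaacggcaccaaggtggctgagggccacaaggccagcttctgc
Loxl3, chr6:83050147-83050206, plus strand: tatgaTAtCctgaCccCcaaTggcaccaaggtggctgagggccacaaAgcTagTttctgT
Loxl4, chr19:42598726-42598785, minus strand: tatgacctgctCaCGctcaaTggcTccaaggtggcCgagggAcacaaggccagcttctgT
Loxl1, chr9:58293636-58293695, minus strand: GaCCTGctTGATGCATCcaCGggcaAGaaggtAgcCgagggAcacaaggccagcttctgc
Loxl4 differed from Loxl2 at 8 of these bases, Loxl3 at 10 and Loxl1 at 21. Over whole coding sequences, identity between lysyl oxidase pairs ran from 60.2% to 69.0%, between Plod pairs from 64.9% to 67.3%, and it was 63.8% between Pcolce and Pcolce2. The longest run of identical bases shared by any pair was 32 bases, between Lox and Loxl1. Untranslated parts were not compared.

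The table of RefSeq promoters (GRCm38.p6) held 5 of the 10 genes, namely Plod1, Plod3, Pcolce, Pcolce2 and Loxl4. The 250 bases before each start were searched on both strands for CAGACA (SMAD-type), GGAATG (TEAD-type), ACGTG and GCGTG (the core of the hypoxia response element), TGACGTCA and its partial form TGACG (the cAMP response element), TGANTCA (AP-1) and CTTTGAA or CTTTGAT (TCF/LEF-type). The promoters of Plod1 and Loxl4 are shown, less any exon bases (none for Plod1, 7 next to the start for Loxl4), because both genes were lower in all 3 cocktails and matches lie in the printed stretch; capitals mark the matches.
Plod1, chr4:147936777-147937026, minus strand: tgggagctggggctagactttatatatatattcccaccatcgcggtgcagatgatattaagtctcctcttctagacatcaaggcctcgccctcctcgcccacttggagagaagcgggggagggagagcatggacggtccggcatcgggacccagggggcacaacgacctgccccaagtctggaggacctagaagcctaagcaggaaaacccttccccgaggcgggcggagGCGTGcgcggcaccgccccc
Loxl4, chr19:42612814-42613056, minus strand: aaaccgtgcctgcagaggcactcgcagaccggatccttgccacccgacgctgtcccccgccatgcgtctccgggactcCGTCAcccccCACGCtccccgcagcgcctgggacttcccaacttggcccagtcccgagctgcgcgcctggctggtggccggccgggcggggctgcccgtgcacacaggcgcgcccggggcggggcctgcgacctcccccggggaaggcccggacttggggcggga
Plod1 held GCGTG once, 20 bases before the start, and Loxl4 held GCGTG and TGACG once each, both on the opposite strand. GCGTG was also found in the windows of Plod3 and Pcolce, and is common, with 28.2% of all 32851 promoters of the table holding it in the same length. TGACG was in 17.8% and ACGTG, found in Plod3, in 16.6%. CTTTGAT was found in Plod3 and in 3.2% of all promoters. All matches in the Plod3 and Pcolce windows lay in bases annotated as exon of some gene, which made up 208 and 83 of the 250 bases. None of these 5 windows held the SMAD-type, TEAD-type or AP-1 letters, the full cAMP response element or CTTTGAA, and the Pcolce2 window held no match at all, which says only that those letters are not in those 250 bases.

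Lox, the founding member of the family (ENSMUSG00000024529, chr18:52516069-52529867, minus strand, mm10), changed most. Its level was 4168 and 4341 CPM (counts scaled to library size by the trimmed mean of M-values) in the 2 MEF libraries, 23.1 and 23.2 under CFAE+8, 39.7 and 41.0 under CFAE+8+MSC, and 43.8 and 35.8 under CFAE+6. The MEF libraries were high and all 6 cocktail libraries low, CFAE+8 lowest of all. As a share of the MEF mean, Lox was left at 0.545% with CFAE+8, 0.948% with MSC2530818 added and 0.935% with CFAE+6. The log2 change from MEF was -7.52 ± 0.0651 (SE) in CFAE+8, with edgeR's quasi-likelihood test giving an adjusted p of 2.12e-35. By log2 change, Lox ranked 22 from the lowest of the 15470 tested genes there. In these bulk libraries, fewer cells of a type and less RNA per cell cannot be told apart.

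**Figure D1:**
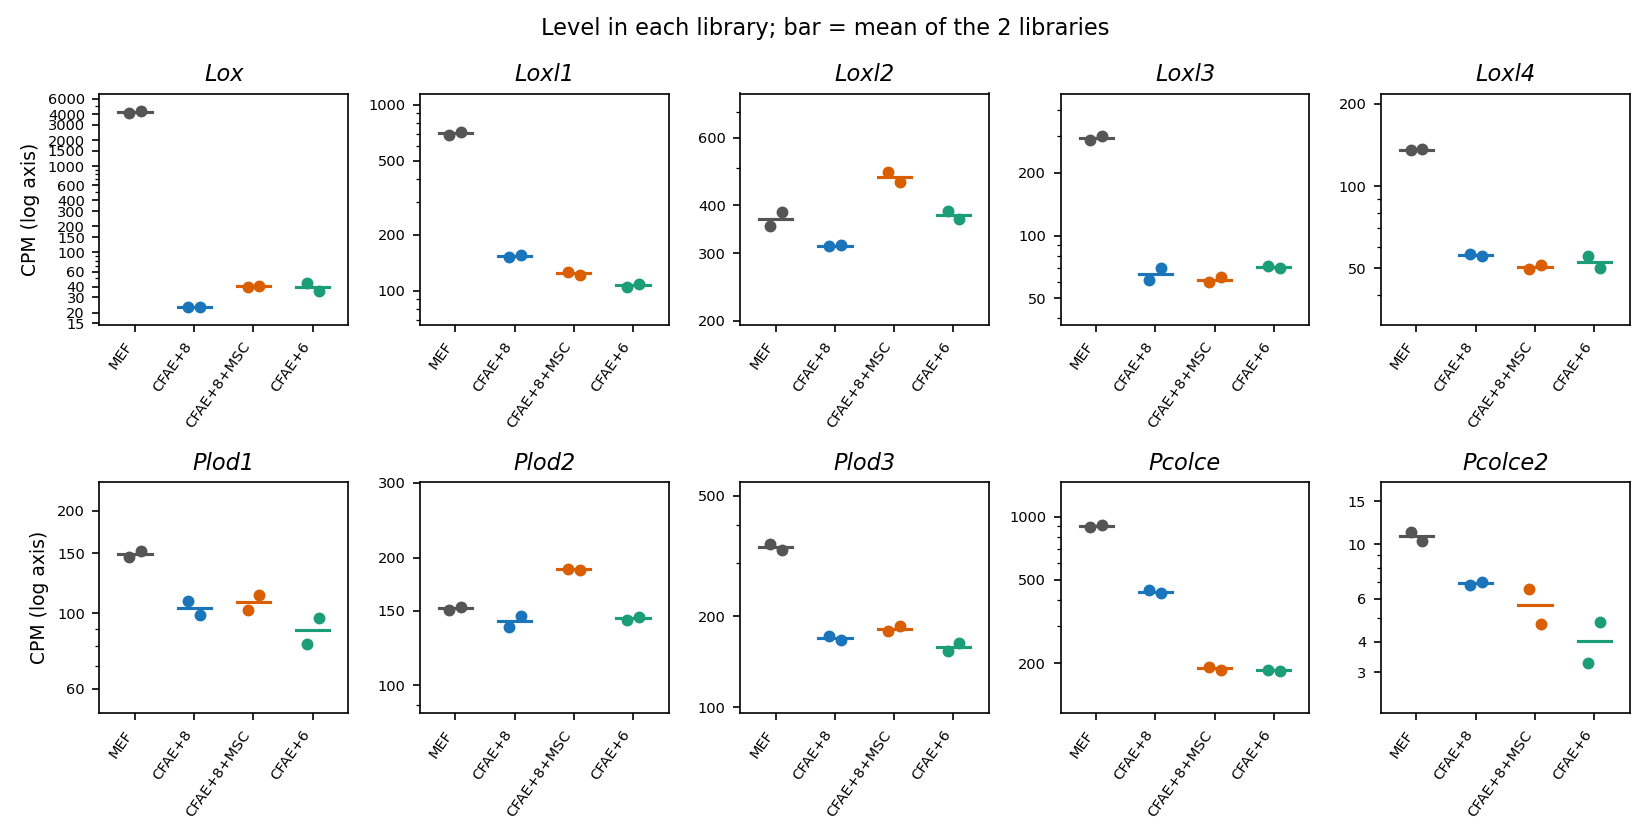
Levels of the 10 enzymes in each of the 8 libraries (y axis, CPM on a log scale with its own range in each panel; x axis, medium; each point is 1 library and each bar the mean of 2). Lox falls from at least 4168 CPM in MEF to below 44 CPM in every cocktail library, whereas Loxl2 and Plod2 stay within a narrow range and are highest in CFAE+8+MSC.

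Loxl1, the paralog most tied to elastic fibres (ENSMUSG00000032334, chr9:58287738-58313186, minus strand), was at 691 and 719 CPM in MEF, 152 and 156 under CFAE+8, 126 and 122 under CFAE+8+MSC, and 105 and 109 under CFAE+6. No 2 media overlapped, and the order ran from MEF down to CFAE+6. Loxl3 (ENSMUSG00000000693, chr6:83034173-83052562, plus strand) was at 289 and 301 CPM in MEF and between 59.6 and 71.4 in the 6 cocktail libraries, where CFAE+8 overlapped both other cocktails. Loxl4 (ENSMUSG00000025185, chr19:42593982-42612813, minus strand) was at 136 and 137 CPM in MEF and between 49.7 and 56.4 in the cocktail libraries. The fall from MEF to CFAE+8 was -2.19 ± 0.05 (SE, log2) for Loxl1, -2.17 ± 0.0633 for Loxl3 and -1.28 ± 0.0673 for Loxl4, with adjusted p of 3.37e-25, 1.56e-22 and 2.97e-16 (edgeR). Of the exonic length of Loxl3, 11.6% overlaps Htra2, on the opposite strand, in the annotation. If the libraries carry no strand marks, the reads of the shared part cannot be assigned to 1 gene. Htra2 itself was at 51.7 ± 4.64 CPM (SD, n = 2) in MEF and between 28.4 and 29.0 on average in the cocktails.

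Loxl2, a paralog that crosslinks fibrillar and basement membrane collagen (ENSMUSG00000034205, chr14:69609068-69695834, plus strand), did not follow the rest of its family. It was at 353 and 385 CPM in MEF, 312 and 315 under CFAE+8, 488 and 461 under CFAE+8+MSC, and 386 and 368 under CFAE+6. CFAE+8+MSC was above every other medium, CFAE+8 was below every other medium, and MEF and CFAE+6 overlapped. Its log2 change from MEF was -0.23 ± 0.0498 in CFAE+8 (adjusted p 0.000167, edgeR), 0.36 ± 0.0492 in CFAE+8+MSC (adjusted p 2.07e-07), and 0.03 with a 95% interval of -0.07 to 0.13 in CFAE+6 (adjusted p 0.602). The small fall in CFAE+8 no longer passed when a change of over 1.2-fold was asked for (adjusted p 0.611, the highest over 16 alternatives, the lowest being 3.67e-06).

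Among the lysyl hydroxylases, Plod3 (ENSMUSG00000004846, chr5:136987019-136996648, plus strand) fell in every cocktail: 346 and 331 CPM in MEF, 172 and 166 under CFAE+8, 179 and 185 under CFAE+8+MSC, and 153 and 163 under CFAE+6. Plod1 (ENSMUSG00000019055, chr4:147909753-147936767, minus strand) was at 146 and 152 CPM in MEF and between 81.3 and 113 in the cocktail libraries, a smaller fall. Plod2 (ENSMUSG00000032374, chr9:92542223-92608428, plus strand) was at 150 and 153 CPM in MEF, 138 and 145 under CFAE+8, 188 and 187 under CFAE+8+MSC, and 143 and 145 under CFAE+6. CFAE+8+MSC thus stood above the other media for Plod2, and the CFAE+8 and CFAE+6 libraries overlapped. The log2 change from MEF to CFAE+8 was -1.003 ± 0.0524 for Plod3 (adjusted p 2.64e-16, edgeR) and -0.52 ± 0.0711 for Plod1 (adjusted p 2.46e-07). For Plod2 it was -0.10 with a 95% interval of -0.21 to 0.01 (adjusted p 0.112), and CFAE+6 gave -0.08 with an interval of -0.19 to 0.03 (adjusted p 0.223). In CFAE+8+MSC, Plod2 rose by 0.31 ± 0.0542 over MEF (adjusted p 1.42e-05), a call lost only when a change of over 1.2-fold was asked for (adjusted p 0.143, against a lowest value of 6.18e-07 over 16 alternatives). Plod3 shares 11.9% of its exonic length with other genes, mostly Znhit1, which was at 33.7 ± 1.63 CPM in MEF and 28.7 ± 3.18 in CFAE+8.

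Pcolce, the widely expressed enhancer of procollagen C-proteinase (ENSMUSG00000029718, chr5:137605103-137613784, minus strand), formed 3 steps. It was at 893 and 916 CPM in MEF, 446 and 434 under CFAE+8, 193 and 186 under CFAE+8+MSC, and 185.5 and 184.7 under CFAE+6. The steps did not overlap, and the 2 lowest media lay close together. The log2 change from MEF was -1.04 ± 0.0437 under CFAE+8, -2.25 ± 0.0464 under CFAE+8+MSC and -2.29 under CFAE+6, with adjusted p of 1.3e-18, 2.88e-26 and 1.84e-26 (edgeR). Pcolce2 (ENSMUSG00000015354, chr9:95637601-95698096, plus strand) was low throughout, at 11.2 and 10.4 CPM in MEF, 6.83 and 7.04 under CFAE+8, 6.58 and 4.70 under CFAE+8+MSC, and 3.26 and 4.79 under CFAE+6. Its fall in CFAE+8 was -0.64 ± 0.201 (adjusted p 0.00729, edgeR), and without MEF replicate 1 the adjusted p was 0.0573, the highest of 15 alternatives whose lowest was 0.00353.

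Against MEF, 9 of the 10 enzymes fell in CFAE+8 and Plod2 was not called, where 62.0% of all tested genes were called in either direction, 30.8% higher and 31.3% lower. In CFAE+8+MSC 8 fell and 2 (Loxl2 and Plod2) rose, beside 64.1% of all genes called, 31.9% higher and 32.2% lower. In CFAE+6 8 fell, Loxl2 and Plod2 being the 2 not called, beside 63.1% called, 31.6% higher and 31.5% lower. The median log2 change over the 10 was -1.02, -1.18 and -1.39 in the same order, while the median over all tested genes was 0.01, 0.01 and 0.02. These 3 comparisons share the MEF libraries, so their likeness is not independent.

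**Figure D2:**
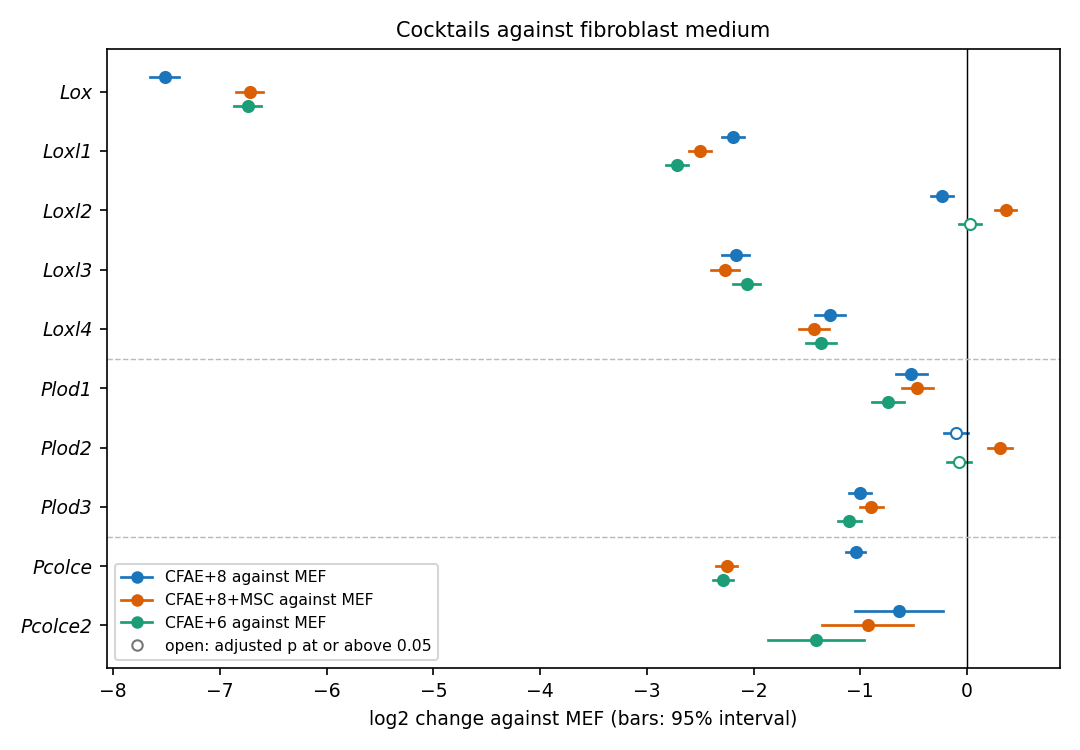
Log2 change of each enzyme from MEF in the 3 cocktails (x axis; points are edgeR estimates, bars their 95% intervals, rows the enzymes). Lox lies beyond -6.5 in all 3 cocktails, and Loxl2 and Plod2 are the enzymes whose estimates fall on both sides of 0.

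Markers of cells other than fibroblasts also moved with the media. The summed level of 10 macrophage markers, all with counts, was 176 to 180 CPM in MEF, 32.3 to 34.4 under CFAE+8, 18.5 to 19.4 under CFAE+8+MSC and 15.3 to 19.04 under CFAE+6. Lyz2 was the largest term in MEF (124 CPM on average, against 14.8 in CFAE+8) and carried most of that fall. Cd68 moved little at first, between 10.9 and 13.2 CPM on average in MEF, CFAE+8 and CFAE+8+MSC, and was at 5.66 in CFAE+6. Each of the 10 averaged lower in every cocktail than in MEF. The 5 mesothelial markers summed to 143 to 145 CPM in MEF and to between 3.31 and 19.6 in the cocktails, with Lrrn4 at 0 in all 3 and Upk3b at 0 in CFAE+8. Msln was the largest term in MEF (101 CPM on average). Krt19, counted among the epithelial markers as well, was at 11.5 CPM in MEF, 1.57 under CFAE+8, 10.4 under CFAE+8+MSC and 10.7 under CFAE+6. The 6 cartilage markers went from 281 to 314 CPM in MEF to between 12.3 and 21.9, with Matn1 at 0 in CFAE+8+MSC and CFAE+6. Col2a1 was the largest term in MEF (248 CPM on average), while Col9a1 went the other way, from 0.465 CPM in MEF to 2.72 in CFAE+8. The sum of 5 bone markers went the other way, from 45.1 to 46.4 CPM in MEF to between 159 and 179 in the cocktails, with Bglap at 0 in CFAE+8. Runx2 was the largest term in every medium, at 42.9 CPM on average in MEF and 92.6 in CFAE+8. Sp7 and Ibsp were also higher in every cocktail, while Alpl averaged 0.75 CPM in MEF and 0.426 in CFAE+8. Endothelial markers (7, of which Tie1 was at 0 in all media but CFAE+6, Cldn5 in MEF, and Emcn in CFAE+8+MSC and CFAE+6) summed to 18.8 to 19.1 CPM in MEF and 25.3 to 27.1 in CFAE+8, and to 52.5 to 54.5 and 55.1 to 61.6 in the cocktails with MSC2530818 and with E-616452. Kdr was the largest term in every medium, at 13.9, 20.6, 44.6 and 50.3 CPM on average in that order. Cdh5 was also higher in every cocktail than in MEF, while Tek and Emcn were lower in each. The 7 epithelial markers summed to 19.7 to 22.8 CPM in MEF and 10.9 to 11.8 in CFAE+8, and to 41.2 to 45.5 and 37.8 to 38.6 in the same 2 cocktails. Krt19 was the largest term in MEF and carried most of the fall in CFAE+8. From MEF to CFAE+8, Krt18 averaged 5.87 and 5.79 CPM, Krt8 1.86 and 2.47 and Epcam 0.0475 and 0.808. Cdh1, Cldn4 and Cldn7 averaged lower in CFAE+8, at low levels in both media. The part of these cell types in the falls of the enzymes was not tested. The 10 fibroblast markers were all present in every medium and summed to 6203 to 6244 CPM in MEF, 5237 to 5240 under CFAE+8, 6286 to 6300 under CFAE+8+MSC and 5845 to 5941 under CFAE+6. Vim was the largest term of that sum in every medium (2716 to 3748 CPM on average), and single markers went both ways: from MEF to CFAE+8, Pdgfrb was at 548 and 109 CPM, Dcn at 171 and 83.8 and S100a4 at 5.46 and 0.297, against 681 and 1100 for Thy1 and 42.6 and 153 for Twist2. Library totals ran from 10958430 to 11913143 counts, and 3 counts came to at most 0.285 CPM in any library.

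To compare the enzymes with one another, levels were divided by the exonic length in the deposited table, giving CPM per kilobase. In MEF the order was Lox (884), Pcolce (234 to 239.6), Loxl1 (210 to 218), Plod3, Loxl2, Loxl3, Loxl4, Plod2, Plod1 and Pcolce2 (2.33), and of the neighbours in it only Loxl2 and Loxl3 overlapped. In CFAE+8 the order of mean levels began with Pcolce (115), Loxl2 (58.0), Loxl1 (46.8) and Plod3 (37.4), and Lox (4.82) was the ninth, above Pcolce2 alone. In CFAE+8+MSC Loxl2 came first at 87.8, above Pcolce at 49.6, in CFAE+6 they stood at 69.8 and 48.4 in the same order, and Lox was the ninth in both (8.38 and 8.27). The place of Pcolce depended on the length used, its annotated exons adding up to more than its longest coding transcript. With the longest coding transcript of each gene as length, Pcolce was at 117 and Loxl2 at 89.3 in CFAE+8+MSC, and at 114 and 70.9 in CFAE+6, so Pcolce came before Loxl2 in all 3 cocktails. Other places moved too: Plod3 came before Loxl1 in CFAE+8, Plod2 before Loxl1 in CFAE+8+MSC and CFAE+6, Plod1 before Loxl3 in CFAE+6, and in MEF Loxl3 came before Loxl2 and Plod1 and Plod2 before Loxl4, Plod1 leading. Lox stayed at the first place in MEF and at the ninth in the cocktails under both lengths.

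The summed level of the 5 lysyl oxidases was 1263 ± 37.5 CPM per kilobase (SD, n = 2) in MEF, 137 ± 2.44 under CFAE+8, 159 ± 3.48 under CFAE+8+MSC and 138 ± 3.81 under CFAE+6, so it was 9.21-fold, 7.93-fold and 9.13-fold lower in the cocktails. Without Lox the sum was 379 ± 11.9 in MEF and 132 ± 2.42, 151 ± 3.67 and 130 ± 2.63 in the cocktails in that order. Lox made up 70.0% ± 0.0554 of the family's level in MEF and 3.51% ± 0.0511 under CFAE+8, 5.27% ± 0.235 under CFAE+8+MSC and 5.97% ± 0.689 under CFAE+6. Loxl2 went from 5.40% ± 0.172 in MEF to 42.3% ± 0.483, 55.1% ± 1.07 and 50.4% ± 0.262 in the same media. The leading lysyl oxidase transcript was therefore Lox in both MEF libraries and Loxl2 in all 6 cocktail libraries, with Loxl1 as the second in each. With 2 libraries against 2, an exact permutation test of a share cannot go below p = 0.333, so no test of these shares is given.

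**Figure D3:**
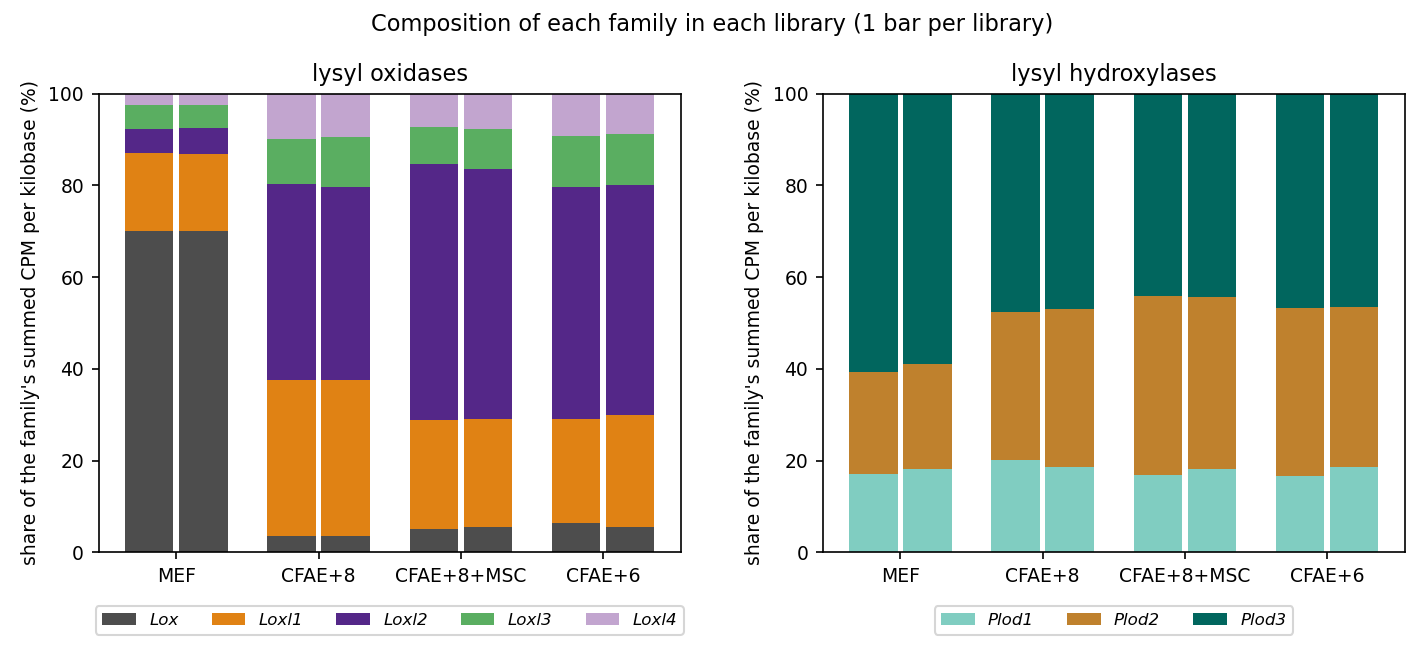
Share of the family's summed level (y axis, percent of CPM per kilobase, bars stacked from 0 to 100) held by each member, with a separate bar for each library. The panels show the lysyl oxidases and the lysyl hydroxylases. As means of 2 libraries, Lox makes up 70.0% of the lysyl oxidase level in MEF and at most 5.97% in a cocktail, where Loxl2 holds between 42.3% and 55.1%.

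The lysyl hydroxylase sum was 125 ± 1.44 CPM per kilobase in MEF, 79.0 ± 0.881 under CFAE+8, 91.0 ± 1.92 under CFAE+8+MSC and 74.8 ± 3.54 under CFAE+6. Plod3 led in every medium, at 59.9% of the sum in MEF and between 44.2% and 47.3% in the cocktails. Plod2, the telopeptide enzyme, held 22.5% in MEF and 33.2% under CFAE+8, 38.3% under CFAE+8+MSC and 35.7% under CFAE+6. Plod1 held between 17.5% and 19.4%. The order of Plod1 and Plod2 in MEF depended on the length used: with the longest coding transcript of each gene, Plod1 held 24.1% and Plod2 21.8% there. The sum of the 2 C-proteinase enhancers was 239 ± 4.13 in MEF, 117 ± 2.16 under CFAE+8, 50.8 ± 1.501 under CFAE+8+MSC and 49.3 ± 0.0941 under CFAE+6, and Pcolce2 held on average between 0.976% (MEF) and 2.39% (CFAE+8+MSC) of it, and 2.74% in the highest single library.

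Adding the CDK8/19 inhibitor MSC2530818 to CFAE+8 raised 3 of the enzymes and lowered 2, where 29.3% of all tested genes were called, 15.6% higher and 13.8% lower. Lox rose by 0.80 ± 0.0765 (SE, log2; adjusted p 1.61e-09, edgeR), from 23.2 ± 0.0748 to 40.3 ± 0.922 CPM (SD, n = 2), which was still only 0.948% of the MEF level. Loxl2 rose by 0.60 ± 0.0494 (adjusted p 7.5e-11) and Plod2 by 0.41 ± 0.0541 (adjusted p 6.83e-07), both to above their MEF level. Pcolce fell 2.32-fold (log2 -1.21 ± 0.0461, adjusted p 1.65e-18), the largest change of the 10 in this comparison. Loxl1 fell by 0.31 ± 0.0528 (adjusted p 3.19e-05), a call lost when a change of over 1.2-fold was asked for (adjusted p 0.299, against a lowest value of 1.58e-07 over 16 alternatives). The other 5 were not called, with 95% intervals of -0.24 to 0.05 for Loxl3, -0.30 to 0.003 for Loxl4, -0.09 to 0.20 for Plod1, -0.003 to 0.22 for Plod3 and -0.74 to 0.15 for Pcolce2. The median over the 10 was -0.02.

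The exchange of A-83-01 for E-616452, with the other 4 compounds the same, was a comparison of CFAE+6 with CFAE+8. Here 2 of the enzymes rose and 4 fell, where 26.6% of all tested genes were called, 14.3% higher and 12.3% lower. Lox rose by 0.78 ± 0.0764 (adjusted p 3.47e-09, edgeR), to 39.8 ± 5.68 CPM, and Loxl2 by 0.27 ± 0.0496 (adjusted p 0.000138). Pcolce fell 2.38-fold (log2 -1.25 ± 0.0461, adjusted p 2.33e-18) and Loxl1 by 0.53 ± 0.0534 (adjusted p 6.58e-09). The Loxl2 call was lost when a change of over 1.2-fold was asked for (adjusted p 0.745, lowest 3.4e-07 over 16 alternatives).

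Plod1 and Pcolce2 were also lower in CFAE+6 than in CFAE+8, by 0.22 ± 0.0738 (adjusted p 0.0274, edgeR) and 0.78 ± 0.231 (adjusted p 0.0118). Neither call held under all alternatives. With DESeq2 the adjusted p was 0.0926 for Plod1 and 0.06 for Pcolce2, and without CFAE+6 replicate 1 it was 0.453 and 0.171. Leaving out CFAE+8 replicate 1 ended the Plod1 call (adjusted p 0.302) and leaving out CFAE+8 replicate 2 that of Pcolce2 (adjusted p 0.064). Over all alternatives the adjusted p ran from 0.00104 to 1 for Plod1 and from 0.0056 to 0.171 for Pcolce2. Loxl3, Loxl4, Plod2 and Plod3 were not called, with 95% intervals of -0.04 to 0.25, -0.23 to 0.07, -0.09 to 0.14 and -0.21 to 0.01. The comparisons of CFAE+8+MSC and CFAE+6 with CFAE+8 share the CFAE+8 libraries, so the rises of Lox and Loxl2 and the falls of Pcolce and Loxl1 in both are not independent of each other.

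**Figure D4:**
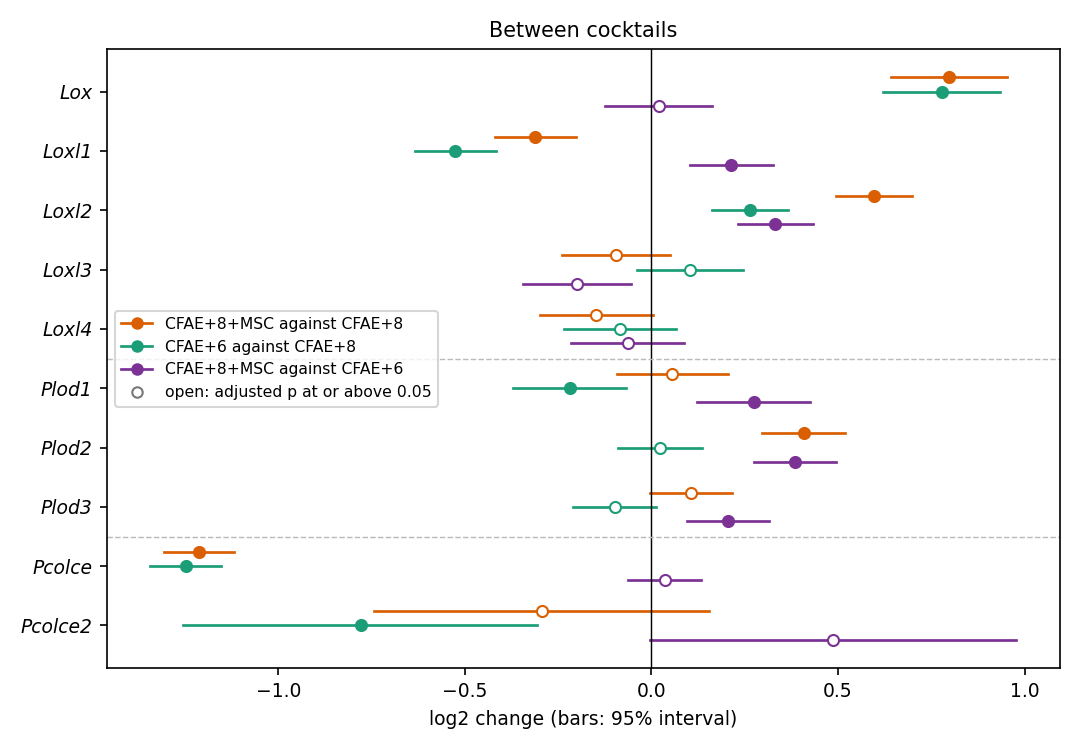
Log2 difference of each enzyme between cocktails (x axis; points are edgeR estimates, bars their 95% intervals, rows the enzymes) for the 3 pairs of cocktails. Pcolce lies near -1.2 against CFAE+8 in both other cocktails and near 0 between those 2, and Lox lies near 0.8 against CFAE+8 in both.

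The comparison of CFAE+8+MSC with CFAE+6 does not use the CFAE+8 libraries, and the 2 cocktails differ both in MSC2530818 and in the receptor inhibitor. Of the 10 enzymes 5 were higher in CFAE+8+MSC, beside 10.5% of all genes called, 6.21% higher and 4.27% lower. Plod2 was higher by 0.38 (adjusted p 9.42e-06, edgeR) and Loxl2 by 0.33 (adjusted p 1.91e-05). Loxl1 (0.21, adjusted p 0.00885), Plod3 (0.21, adjusted p 0.0116) and Plod1 (0.27, adjusted p 0.0138) were also higher. Each of these last 3 calls rested on single libraries: without CFAE+6 replicate 1 the adjusted p was 0.0566 for Loxl1, 0.113 for Plod3 and 0.257 for Plod1. Without CFAE+8+MSC replicate 1 that of Loxl1 was 0.0844, and without CFAE+8+MSC replicate 2 that of Plod1 was 0.177 and that of Plod3 0.0916. None of the 5 calls held when a change of over 1.2-fold was asked for, with adjusted p between 0.145 and 1. Lox differed by 0.02 with a 95% interval of -0.12 to 0.16, and Pcolce by 0.04 with an interval of -0.06 to 0.13. Loxl3 was 0.20 lower in CFAE+8+MSC and just missed the threshold (adjusted p 0.0682), passing it only under a filter at 10 CPM (adjusted p 0.0498, against a highest value of 1 over 16 alternatives).

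The procollagen proteinases, among them the C-proteinases that PCOLCE assists, moved in several directions. The C-proteinase genes Bmp1 and Tll1 were both lower than in MEF in all 3 cocktails. Levels of the genes around the enzymes are given as means ± SD (n = 2). Bmp1, the main procollagen C-proteinase, named here after its values were seen, was at 496 ± 8.45 CPM in MEF, 433 ± 5.16 under CFAE+8, 424 ± 16.2 under CFAE+8+MSC and 447 ± 15.9 under CFAE+6. Its log2 change from MEF to CFAE+8 was -0.20 (adjusted p 0.000407, edgeR), and against CFAE+8 its 95% intervals were -0.12 to 0.06 with MSC2530818 and -0.05 to 0.14 with E-616452, where Pcolce fell more than 2.3-fold. Tll1, a tolloid-like C-proteinase, went from 85.5 ± 4.5 CPM in MEF to 4.38 ± 0.321 in CFAE+8 (log2 -4.28, adjusted p 1.72e-22), 12.6 ± 0.617 in CFAE+8+MSC and 9.87 ± 0.881 in CFAE+6. The N-proteinase Adamts14 rose from 28.5 ± 1.66 CPM in MEF to 197 ± 5.66 in CFAE+8 (log2 2.79, adjusted p 3.21e-24), and Adamts2 was at 150 ± 6.65 CPM in MEF, 142 ± 0.796 under CFAE+8, 215 ± 5.56 under CFAE+8+MSC and 267 ± 2.36 under CFAE+6. Of the 6 tested proteinases among 8 listed, 3 rose and 2 fell from MEF to CFAE+8, and the median log2 change was 1.21. The 3 that rose were Adamts14, Adamts3 and Mep1a. Mep1a was close to the level of 3 counts, at 0 CPM in MEF and 0.554 ± 0.424 in CFAE+8, and the median includes it.

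Of the 17 other enzymes and chaperones of collagen modification and folding, 13 fell and 1 rose from MEF to CFAE+8, with a median log2 change of -0.56. The prolyl 4-hydroxylase subunit P4ha2 fell from 98.8 ± 5.08 to 30.1 ± 0.464 CPM (log2 -1.71, adjusted p 1.84e-17, edgeR) and P3h4, which forms a complex with lysyl hydroxylase 1, from 234 ± 3.47 to 87.2 ± 5.81 CPM (log2 -1.43, adjusted p 2.2e-18). With MSC2530818, 5 of the 17 rose and 2 fell against CFAE+8 (median 0.03), beside 29.3% of all genes called (15.6% higher, 13.8% lower), with P4ha2 to 45.7 ± 0.101 CPM (log2 0.60, adjusted p 2.47e-06). With E-616452, 6 rose and 4 fell (median 0.0046), beside 26.6% of all genes called (14.3% higher, 12.3% lower), with P4ha2 to 40.6 ± 2.84 CPM. Of the 6 listed genes of procollagen export 5 fell from MEF to CFAE+8, among them the coat protein gene Sec23a, from 244 ± 0.107 to 152 ± 7.19 CPM.

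The substrates of the enzymes fell as well. Of 11 fibrillar collagen genes, 8 fell and 3 rose from MEF to CFAE+8 (median log2 change -1.29). Col1a1, the main chain of type I collagen, went from 14730 ± 382 CPM in MEF to 4058 ± 66.6 under CFAE+8, 4324 ± 192 under CFAE+8+MSC and 3506 ± 208 under CFAE+6, a log2 change of -1.86 in CFAE+8 (adjusted p 4.32e-27, edgeR), where that of Lox was -7.52. Col1a2 fell further against CFAE+8 in both other cocktails (log2 -0.50 and -0.52), while Col5a3, a minor fibrillar chain, rose from 42.9 ± 0.0708 CPM in MEF to 66.0 ± 0.902 in CFAE+8 and 142 ± 12 in CFAE+8+MSC. Of 12 elastic fibre genes and partners, 10 fell and 2 rose (median -2.36), among them Fbln5, which ties elastin to the crosslinking enzymes, from 1022 ± 3.8 to 31.1 ± 0.623 CPM. Elastin itself (Eln) was at 89.0 ± 3.11 CPM in MEF, 14.3 ± 0.847 under CFAE+8, 27.6 ± 4.78 under CFAE+8+MSC and 49.0 ± 1.99 under CFAE+6. Periostin (Postn), a matrix protein that aids the activation of LOX, was at 352 ± 2.17 CPM in MEF, 32.3 ± 1.48 under CFAE+8, 341 ± 3.38 under CFAE+8+MSC and 315 ± 3.54 under CFAE+6, whereas Lox itself stayed at or below 43.8 CPM in those cocktail libraries.

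Genes that answer to TGF-beta and to low oxygen, the known inducers named above, were listed beside the enzymes. Of 10 TGF-beta target and feedback genes, 8 fell and 1 rose from MEF to CFAE+8 (median log2 change -0.79). Tgfbi, a secreted matrix protein, rose from 189 ± 4.12 CPM in MEF to 999 ± 9.49 under CFAE+8, 1405 ± 39 under CFAE+8+MSC and 1033 ± 16.1 under CFAE+6. With MSC2530818, 6 of the 10 rose and 2 fell against CFAE+8 (median 0.22; 29.3% of all genes called), and with E-616452 3 rose and 5 fell (median -0.09; 26.6% of all genes called). Of 13 tested hypoxia response genes, 9 fell and 1 (Vegfa) rose from MEF to CFAE+8 (median -0.38). Adm, the hypoxia response gene with the lowest adjusted p from MEF to CFAE+8 and from CFAE+8 to each other cocktail, went from 90.7 ± 2.42 CPM in MEF to 21.1 ± 3.77 under CFAE+8, 63.6 ± 2.37 under CFAE+8+MSC and 47.8 ± 3 under CFAE+6. The 8 small leucine-rich proteoglycans, which steer fibril growth without being enzymes, fell in 7 cases and rose in 1 (median -4.28), and of the 2 transglutaminases tested, Tgm2 fell from 27.2 ± 0.707 to 5.62 ± 0.748 CPM. All these lists were drawn up with results of the same libraries known, and their counts stand beside 62.0% of all genes called from MEF to CFAE+8.

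The enzymes were also compared by the shape of their pattern over the 8 libraries, as the Euclidean distance between log2 CPM values after each gene's mean was taken off. The closest pair of the 10 was Loxl2 and Plod2, at 0.28, followed by Loxl4 and Plod3 (0.56) and by Plod1 and Plod3 (0.56), while Lox was at least 5.71 from every other enzyme. Among 10858 protein-coding candidates, the genes nearest to Lox were Anxa8 (0.93), Prelp (1.10) and Cavin2 (1.23), with Anxa8 at 148 CPM in MEF and 0.425 in CFAE+8. Nearest to Loxl2 were Myo10 (0.14), Itpr1 (0.15) and Foxk1 (0.16), and to Plod2 Acot7 (0.10), Pdlim7 (0.17) and Pitpnm2 (0.17). Pcolce lay nearest to the metalloproteinase inhibitor Timp1 (0.38), which was at 343 CPM in MEF, 149 under CFAE+8, 57.5 under CFAE+8+MSC and 69.6 under CFAE+6, and then to Fstl3 (0.43) and Serpina3g (0.45). For Loxl1 these were Il6st, Arhgdib and Renbp (0.30 to 0.36), for Loxl3 Mafk, Cdc42ep2 and Sgsh, for Loxl4 Nfe2l1, Rhoq and Ginm1, for Plod1 Lrp5, Nupl2 and Esyt1, for Plod3 Uck2, Pls3 and Aldh18a1, and for Pcolce2 Atxn7l1, Igsf8 and Map3k4. These distances describe 8 libraries in 4 media, and libraries of 1 medium are not independent points of a pattern.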

How the data were processed

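Per the submitters' processing notes, reads were mapped to mm10 and counted with featureCounts of Subread, and DESeq2 is also named; for the aligner and annotation release, the sources used here give nothing. The deposited table holds raw counts per gene for 8 libraries and the authors' exonic gene length, used here only for levels per kilobase. Counts were tested with edgeR 4.0.16 in R 4.3.3 (TMM scaling, filterByExpr, quasi-likelihood F test, 1 mean per medium, all 8 libraries, 4 residual degrees of freedom, Benjamini-Hochberg adjustment over 15470 genes at 0.05). These genes hold 99.85% of all counts. Standard errors are the unshrunk estimate divided by the square root of F, and intervals are 95%. Beyond the 4 residual degrees of freedom, the test and the intervals also borrow information on the spread from all tested genes.

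The members and lists were chosen with earlier results of these data known. Named were all 10 enzymes, the 3 genes of each list with the lowest adjusted p in each of 3 comparisons (some are only counted), and the 3 nearest patterns among protein-coding genes averaging 5 CPM or more. Aldoa matched 2 identifiers and was left out. Libraries of a medium differed by more than sampling noise (chi-square over its degrees of freedom, 1.91 to 2.79), so none were merged. Alternatives were other scalings, filters, DESeq2 1.42.0, a 1.2-fold threshold, fits of 2 groups, a replicate block and leaving out each library.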

Additional observations from a re-analysis of the deposited data

How the results depend on the processing

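Under the alternatives, 929 values of the 10 enzymes kept their side of the threshold, 24 lost the call and 1 gained it. No value changed direction where the main or the alternative fit called it, but some uncalled estimates changed sign. Lox in CFAE+8+MSC against CFAE+6, for example, ran from -0.121 to 0.172. Of the 60 enzyme comparisons, 47 kept their call under every alternative run. Asking for a change of over 1.2-fold moved the enzymes called higher from 2 to 1 in CFAE+8+MSC against MEF, from 2 to 1 in CFAE+6 against CFAE+8 and from 5 to 0 in CFAE+8+MSC against CFAE+6, and those called lower from 2 to 1 in CFAE+8+MSC against CFAE+8 and from 4 to 2 in CFAE+6 against CFAE+8. DESeq2 also left 2 lower in the last of these, and a filter at 10 CPM in 2 libraries gave 1 lower in CFAE+8+MSC against CFAE+6 in place of 0; the cause was not tested. Leaving out each library in turn left 8 to 9 enzymes lower in CFAE+8 against MEF, 8 lower and 2 higher in CFAE+8+MSC against MEF, 8 lower in CFAE+6 against MEF, 3 higher and 2 lower in CFAE+8+MSC against CFAE+8, 2 higher and 2 to 4 lower in CFAE+6 against CFAE+8, and 2 to 5 higher in CFAE+8+MSC against CFAE+6; where a medium was left with 1 library, that library was assumed to vary like the other media. The counts of all genes moved by more than 1.5 times for genes lower in CFAE+8+MSC than in CFAE+8 (2129, with DESeq2 1300, at 1.2-fold 731, leaving out a library 1364 to 2260; higher 2409, at 1.2-fold 1294), lower in CFAE+6 than in CFAE+8 (1901, 1201, 569 and 1184 to 1897; higher 2215, at 1.2-fold 1085) and lower in CFAE+8+MSC than in CFAE+6 (660, 342, 89 and 349 to 598; higher 961, at 1.2-fold 190, leaving out a library 584 to 933). Other scalings moved the median change of all genes to at most 0.0611 on the log2 scale. With the longest coding transcript as length, added after seeing the data, 34 of 40 family shares moved by more than their SD, Lox still led in MEF and Loxl2 in the cocktails.

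The replicate numbers were not taken as pairs: the correlation of same-numbered deviations over 9853 genes ran from -0.0524 to 0.111. A fit with a replicate block gave the same counts of enzymes called in all 6 comparisons, 9 lower in CFAE+8 against MEF and 3 higher and 2 lower in CFAE+8+MSC against CFAE+8 among them. Shares with coding length from a protein table were not run. With 2 libraries per medium and 3 counts at about 0.25 to 0.29 CPM, Pcolce2, at 3.26 to 11.2 CPM, is the enzyme nearest the limit set by depth.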
